A study of Mus musculus with 6 samples.

Results

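Histone genes are described here in SL4 cells, a luciferase-expressing mouse colorectal cancer (CRC) line, with and without overexpression of SEMA6A. Members were taken by name, as the genes whose symbols begin with H1f, H2ac, H2bc, H3c, H4c, H2az or H3f, with 5 pseudogenes left out. This gave 76 of the 53700 genes listed: 64 clustered histone genes, 11 variant histone genes and 1 RNA from the strand opposite H3f3a (H3f3aos, at most 0.27 TPM in any library), which was counted in neither class. The clustered genes were those named H2ac, H2bc, H3c, H4c and H1f1 to H1f6. Older name forms (Hist1h to Hist4h, H2afz and H2afx) were also searched, and no member carries one. H2ax and H2aw are listed under current symbols and were described apart, although their older names, H2afx and Hist3h2a, have these forms.

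RNA was sequenced from 3 libraries of pLV-Control cells (SL4 without overexpression of SEMA6A) and 3 of pLV-SEMA6A cells (SL4 carrying a lentiviral SEMA6A transgene as a stable line). No source says that the 3 libraries of a group came from separate cultures or independently made lines, so p-values measure the spread between these libraries, and the transgene and the making of the line cannot be told apart. Values are TPM (transcripts scaled to a fixed total), which correct for transcript length and hold no read numbers, so the depth of each library is unknown. The genes listed summed to 984475 to 986444 TPM in pLV-Control libraries and to 977400 to 977972 TPM in those of pLV-SEMA6A. TPM were not rescaled to a common sum. Poly-A RNA was selected with oligo(dT) before sequencing.

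Sema6a was listed at 0 in all 3 pLV-Control libraries, and pLV-SEMA6A had 98.68, 118.42 and 112.22 TPM, as the labels say. Of the 12510 genes whose mean reached 1 TPM, limma on log2(TPM + 1) gave 640 upregulated and 1347 downregulated differentially expressed genes (DEGs, adjusted p under 0.05 and a log2 fold change, log2FC, beyond 0.5 in size). SE below is the standard error of the log2FC. With each library centred on its median these became 1002 (8.01%) and 961 (7.68%), since centring moved every log2FC up by 0.09. The 6 epithelial markers were at or near 0 in every library (Epcam listed at 0, Krt8 at most 0.39 TPM), although the paper names SL4 a CRC line. These values describe the cells as sequenced, and the origin of the line was not tested. The 7 leukocyte markers did not exceed 0.64 TPM. Of 6 fibroblast and endothelial markers, Col1a1 was an upregulated DEG, from 1.27 ± 0.11 to 3.60 ± 0.24 TPM (SD, n = 3 each). The summed level of that list was 3.67 to 4.24 TPM in pLV-Control and 6.20 to 7.07 TPM in pLV-SEMA6A, and its part in the results below was not tested.

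Histones package DNA in nucleosomes, each built on the core histones H2A, H2B, H3 and H4, while the linker histone H1 binds the DNA between them. Clustered histone genes are transcribed mainly in S phase, when new DNA needs new nucleosomes, and their mRNAs end in a short stem-loop in place of a poly-A tail. Variant genes such as H2az1 and H3f3a are made throughout the cell cycle as ordinary polyadenylated mRNAs, and their proteins replace the core histones outside replication. Oligo(dT) selection therefore retains variant mRNAs, while a clustered mRNA is retained only as a polyadenylated form or as carry-over, so clustered TPM below are not a measure of total clustered histone mRNA. In bulk RNA, more cells in S phase and more histone mRNA per cell cannot be told apart.

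The stem-loop marks the class, and it is shown here for some of the members named below, with H2ax added for comparison. H3c8, an upregulated DEG, and H2bc4, the clustered gene with the highest mean, are not shown. No stem-loop was found in their annotated transcripts. The stem-loop was searched as GG and any pair of bases, the core CTTTNNAG, and the 4 bases that pair with the first 4. In the GENCODE M21 transcripts (GRCm38) it occurred in 57 of 55450 genes, or 0.103%, among them 41 of the 64 clustered members and 0 of the 11 variants. Each sequence below is on the gene's own strand, in DNA letters, with the 16 bases of the stem-loop in capitals and 5 bases on each side.
H1f2: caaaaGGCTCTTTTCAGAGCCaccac
H2ac8: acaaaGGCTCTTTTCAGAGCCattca
H2ac11: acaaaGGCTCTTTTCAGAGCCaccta
H2ac18: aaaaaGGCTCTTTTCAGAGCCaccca
H2ac19: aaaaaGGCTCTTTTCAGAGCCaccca
H4c9: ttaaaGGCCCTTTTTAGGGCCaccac
H4c11: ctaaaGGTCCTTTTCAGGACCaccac
H2ax: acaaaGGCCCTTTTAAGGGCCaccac
The capitals lie at chr13:23739512-23739527 (plus strand) for H1f2, chr13:23570668-23570683 (minus) for H2ac8, chr13:22042483-22042498 (minus) for H2ac11, chr3:96246032-96246047 (plus) for H2ac18 and chr3:96239784-96239799 (minus) for H2ac19. They lie at chr13:22040966-22040981 (minus) for H4c9, chr13:21735437-21735452 (plus) for H4c11 and chr9:44335240-44335255 (plus) for H2ax, all in the single exon of the gene and in its 3′ UTR.

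Among the clustered members 6 different stem-loops occurred, and 24 members held the form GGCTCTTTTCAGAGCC that H1f2 and both H2ac8 and H2ac11 carry. The stem-loop began 21 to 58 bases after the stop codon in the 40 members where this could be read. Annotated transcripts ran on for at least 100 bases past it in 19 members and for less in 22, and in the other 23 members no stem-loop was found in the annotated transcript. The window searched ended where the annotation ends, so no match says only that these letters are not in it. H2ax, a variant gene that the names do not take, holds the stem-loop and is annotated for 822 bases past it.

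Variant histone genes held nearly all of the histone signal. Of the 11, 6 passed the filter of 1 TPM, 2 were upregulated DEGs and 0 were downregulated by limma, where 5.12% of all genes tested were upregulated and 10.8% downregulated. At an unadjusted p under 0.05, 4 were higher and 0 lower. No share of all genes was taken at that unadjusted cutoff, here or below, and the shares given are for DEGs. At an adjusted p under 0.05 with no minimum fold change, 2436 of the 12510 genes tested were higher and 3523 lower. Of the variants under the filter, H1f7, H1f8 and H1f9, linker histones of germ cells, were listed at 0 in all 6 libraries. H3f3c reached 0.53 TPM in 1 library and H3f4 reached 0.41 TPM in 1 library.

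H2az1, which encodes H2A.Z.1, the H2A variant placed at promoters and enhancers, had the highest level of all members. Its level stood at 965.86, 944.45 and 942.17 TPM without the transgene and 1732.48, 1767.52 and 1776.43 TPM with it. The groups lie far apart, and within each group the libraries differ little. The log2FC was 0.89 (SE 0.02, limma adjusted p = 8.18e-07, 3 against 3 libraries), and it ranged from 0.88 to 0.90 when each library was left out in turn. H2az1 lies on chromosome 3 from 137864487 to 137866922 (GRCm38), and 18.8% of its runs of 31 bases are found elsewhere among transcripts, mainly in Gm8203.

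H2az2, which encodes the closely related H2A.Z.2, was much lower. It was at 55.92, 55.21 and 64.88 TPM in pLV-Control libraries, with 62.52, 64.89 and 58.39 TPM in those of pLV-SEMA6A, and the groups overlap. The log2FC of 0.08 (SE 0.07, limma adjusted p = 0.402) did not pass the threshold.

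H3f3a and H3f3b encode the same protein, H3.3, the H3 variant that is deposited independently of replication. H3f3a measured 399.67, 410.84 and 390.52 TPM in the controls against 473.68, 456.50 and 491.60 TPM in pLV-SEMA6A, without overlap. Its log2FC of 0.24 (SE 0.03, limma adjusted p = 0.00156) lay under the minimum of 0.5. H3f3b was at 402.73, 398.84 and 411.55 TPM against 418.21, 414.09 and 416.54 TPM, again without overlap. Its log2FC was 0.04 (SE 0.02, limma adjusted p = 0.136), so of these genes for 1 protein, H3f3a took most of the difference. Groups of 3 did not overlap in 23.8% of all genes tested with pLV-SEMA6A above and in 34.7% with pLV-SEMA6A below. Among the 6 variants tested, 5 lay above without overlap.

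H1f0 encodes H1.0, the linker histone of slowly dividing and differentiated cells. It stood at 252.59, 248.91 and 252.84 TPM without the transgene and 319.90, 331.52 and 326.47 TPM with it, with no overlap. The log2FC was 0.37 (SE 0.02, limma adjusted p = 5.08e-05), under the minimum of 0.5. H1f10, which encodes the linker histone H1.10, was at 10.72, 10.19 and 7.73 TPM against 11.22, 14.89 and 18.37 TPM, and the lowest pLV-SEMA6A library lay just above the highest pLV-Control library. It counted as an upregulated DEG (log2FC 0.57, SE 0.19, limma adjusted p = 0.0460). It lost the threshold when any library but pLV-SEMA6A replicate 1 was left out (adjusted p from 0.0605 to 0.126) and under the replicate block (limma adjusted p = 0.0959).

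**Figure D1:**
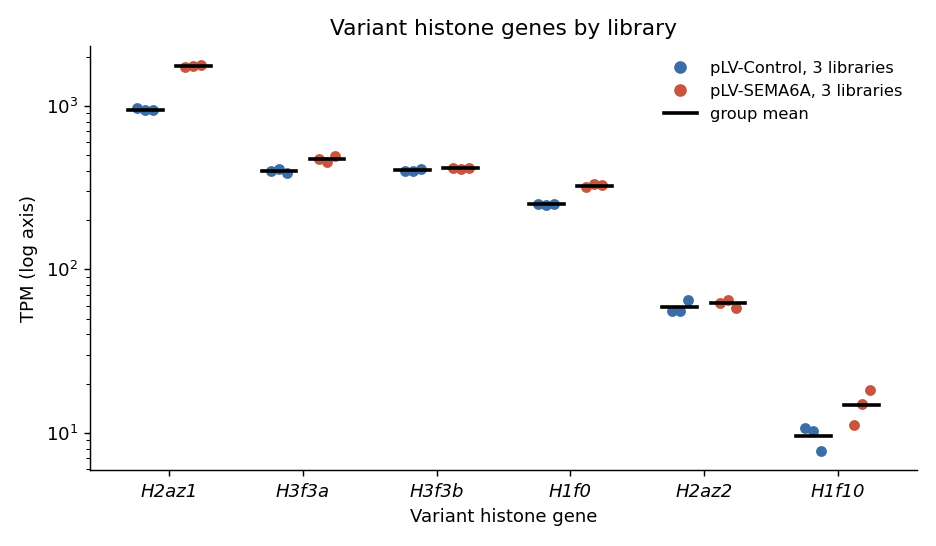
TPM on a log axis of the 6 variant genes that passed the filter, with each library as a point and the group mean as a line. The H2az1 points of pLV-SEMA6A sit at 1732.48 TPM and above and those of pLV-Control at 965.86 TPM and below, while the H2az2 points overlap.

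Summed over the 11 variants, the level was 2087.49, 2068.44 and 2070.22 TPM in pLV-Control libraries, with 3018.42, 3049.41 and 3087.80 TPM in those of pLV-SEMA6A, a ratio of the means of 1.47. H2az1 made 82.7% of that difference of 976 TPM, H1f0 7.63% and H3f3a 7.54%. No test was made of a sum.

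Clustered genes were low beside the variants. All 64 together summed to 129.72, 131.75 and 121.73 TPM in pLV-Control and to 162.96, 163.16 and 162.82 TPM in pLV-SEMA6A, a ratio of the means of 1.28. They made 5.80 ± 0.22% of the TPM of both classes in pLV-Control and 5.07 ± 0.06% in pLV-SEMA6A (SD, n = 3 each). Of the 64, 6 were listed at 0 in all libraries, 23 passed the filter and 41 did not, none of which exceeded 2.56 TPM in any library. H2bc4, H1f2 and H4c9 were the only 3 whose mean reached 10 TPM, and they held 52.6 ± 2.0% of the clustered TPM in pLV-Control and 42.5 ± 3.37% in pLV-SEMA6A (SD, n = 3 each).

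Of the 23 clustered genes tested, 5 were upregulated DEGs and 0 were downregulated by limma, beside 5.12% and 10.8% of all genes tested. With an unadjusted p under 0.05, a cutoff that has no share of all genes beside it, 8 were higher and 1 was lower. The log2FC was above 0 in 18 and below 0 in 5, with a median of 0.62, where the median of all genes tested was −0.064. Without the filter, which adds 35 genes near 0, the median of the clustered genes was 0.25. Most of these genes are low. Of genes with a mean of 1 to 5 TPM, a range chosen after seeing the data, 4.65% were upregulated and 14.7% downregulated, and of the 17 clustered genes in that range 4 and 0 were. The filter on the mean also favours a gene that is high in 1 group: 5 of the 23 reached 1 TPM only in pLV-SEMA6A, and 3 of the 5 DEGs (H2ac11, H3c8 and H4c11) are among them. Both group means reached 1 TPM in 17 clustered genes, a different set from the 17 above, and of these 2 were upregulated and 0 downregulated DEGs. No share of all genes was taken under that condition. The pLV-SEMA6A libraries lay all above pLV-Control in 7 of the 23 and all below in 1, beside the 23.8% and 34.7% given above.

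**Figure D2:**
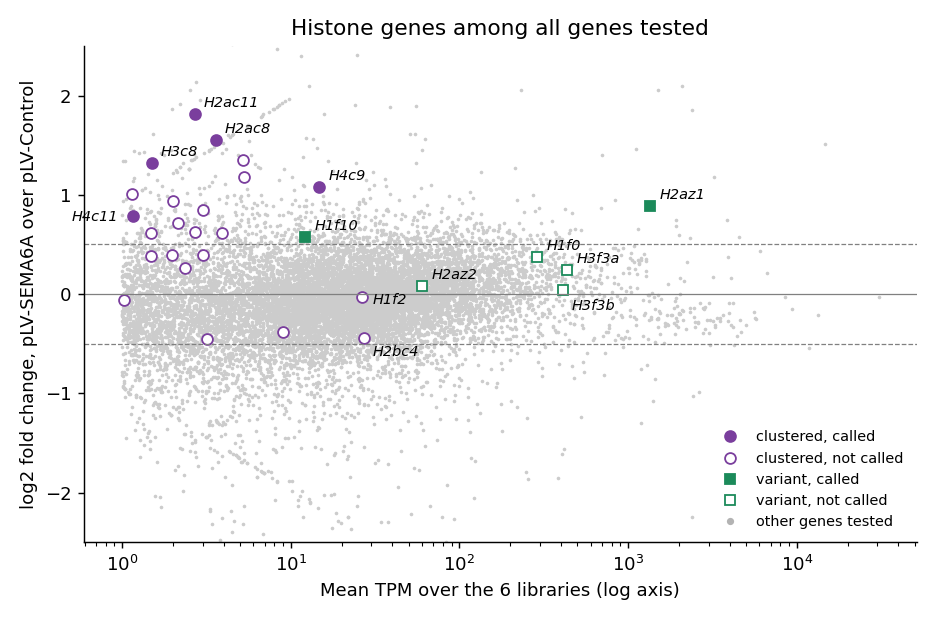
log2FC of pLV-SEMA6A over pLV-Control against mean TPM (log axis), for clustered genes (circles), variants (squares) and all genes tested (grey), with DEGs filled and the minimum of 0.5 dashed. The 5 clustered DEGs lie above 0.5, 4 of them under 5 TPM, and H2az1 stands at the high end of expression; 63 genes lie beyond the plotted range of 2.5.

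H4 genes, which encode a single protein sequence from many copies, summed to 19.84, 25.91 and 20.02 TPM in pLV-Control and to 50.77, 37.99 and 38.14 TPM in pLV-SEMA6A, without overlap. Of 6 tested, 2 were upregulated DEGs, beside 5.12% of all genes tested, and H4c11 among them reached a mean of 1 TPM only in pLV-SEMA6A. H4c9 measured 8.20, 10.30 and 8.78 TPM in the controls against 17.96, 24.64 and 18.77 TPM in pLV-SEMA6A, so every pLV-SEMA6A library was above every pLV-Control library. Its log2FC was 1.08 (SE 0.14, limma adjusted p = 0.000998) and stayed between 0.95 and 1.16 when each library was left out. H4c9 lies on chromosome 13 from 22040636 to 22041362 (GRCm38, minus strand), in 1 exon that runs 330 bases past the stem-loop, and other genes hold 35.3% of its runs of 31 bases. The difference in the clustered sum, 35.2 TPM, is a net of rises and falls. H4c9, the largest rise, equals 32.2% of it, and H2bc4, the largest fall, −24.3%.

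H4c11 stood at 0.76, 0.94 and 0.12 TPM without the transgene and 1.79, 1.42 and 1.91 TPM with it, again without overlap but near the filter. Its log2FC was 0.79 (SE 0.25, limma adjusted p = 0.0397), and it lost the threshold when any library but pLV-Control replicate 2 was left out (adjusted p from 0.0577 to 0.108), under the replicate block (adjusted p = 0.0808), with a pseudocount of 0.1 (adjusted p = 0.0745) and without the filter (adjusted p = 0.0659). H4c8 was at 3.70, 4.11 and 3.49 TPM against 2.13, 1.80 and 3.83 TPM. The pLV-SEMA6A replicate 3 library overlaps pLV-Control, and the log2FC of −0.45 (limma adjusted p = 0.129) passed only without it (−0.69, adjusted p = 0.0111).

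H2A genes summed to 26.05, 32.48 and 22.78 TPM in pLV-Control and to 34.67, 36.29 and 40.62 TPM in pLV-SEMA6A. Of the 8 tested, 2 were upregulated DEGs, beside 5.12% of all genes tested, and H2ac11 among them reached a mean of 1 TPM only in pLV-SEMA6A. H2ac11 was listed at 0, 0.63 and 1.34 TPM in control libraries, where pLV-SEMA6A had 3.86, 7.18 and 3.19 TPM. H2ac8 was at 1.65, 0.56 and 1.78 TPM against 3.70, 5.65 and 8.23 TPM. Neither gene overlaps between the groups, but the pLV-SEMA6A libraries themselves differ by more than 2 TPM. The log2FC was 1.82 for H2ac11 (SE 0.38, limma adjusted p = 0.00838) and 1.55 for H2ac8 (SE 0.32, limma adjusted p = 0.00790), and both passed with each library left out. H2ac11, on chromosome 13 from 22042460 to 22042944, has 79.8% of its runs of 31 bases in common with other genes, chiefly H2ac23, so its level depends on how reads were divided. For H2ac8, on chromosome 13 from 23570517 to 23571220, that share is 47.9%, mainly with H2ac7. H2ac24, at 1.22, 4.05 and 3.81 TPM against 4.70, 4.06 and 5.73 TPM, had a log2FC of 0.62 (limma adjusted p = 0.167).

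The highest H2A level belonged to H2ac18, whose transcript holds every run of 31 bases of the neighbouring H2ac19, as their identical stem-loops above show in small. H2ac18 was at 15.61, 5.09 and 10.87 TPM in pLV-Control libraries, with 4.72, 8.03 and 9.47 TPM in those of pLV-SEMA6A. H2ac19 measured 0.40, 13.25 and 0.32 TPM in the controls against 8.44, 4.87 and 4.52 TPM in pLV-SEMA6A. Where one is low in a pLV-Control library the other is high, so neither value can be read alone. Summed, the genes gave 16.01, 18.34 and 11.19 TPM in pLV-Control and 13.16, 12.90 and 13.99 TPM in pLV-SEMA6A, which overlap. By itself H2ac18 had a log2FC of −0.38 (limma adjusted p = 0.458) and H2ac19 one of 1.18 (SE 0.91, limma adjusted p = 0.327), and H2ac19 would have passed without pLV-Control replicate 2 (2.31, adjusted p = 0.00209).

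H4c12 has 86.2% of its runs of 31 bases in common with other genes, chiefly H4c1. It stood at 0.82, 6.87 and 0.94 TPM without the transgene and 13.03, 5.99 and 3.68 TPM with it. H4c1 was at 1.20, 0 and 0.66 TPM against 2.51, 0.22 and 1.11 TPM. Their sum, 2.02, 6.87 and 1.60 TPM against 15.54, 6.21 and 4.79 TPM, overlaps because pLV-Control replicate 2 is high. H4c12 had a log2FC of 1.35 (limma adjusted p = 0.137), and of 2.04 without that library (adjusted p = 0.0188).

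**Figure D3:**
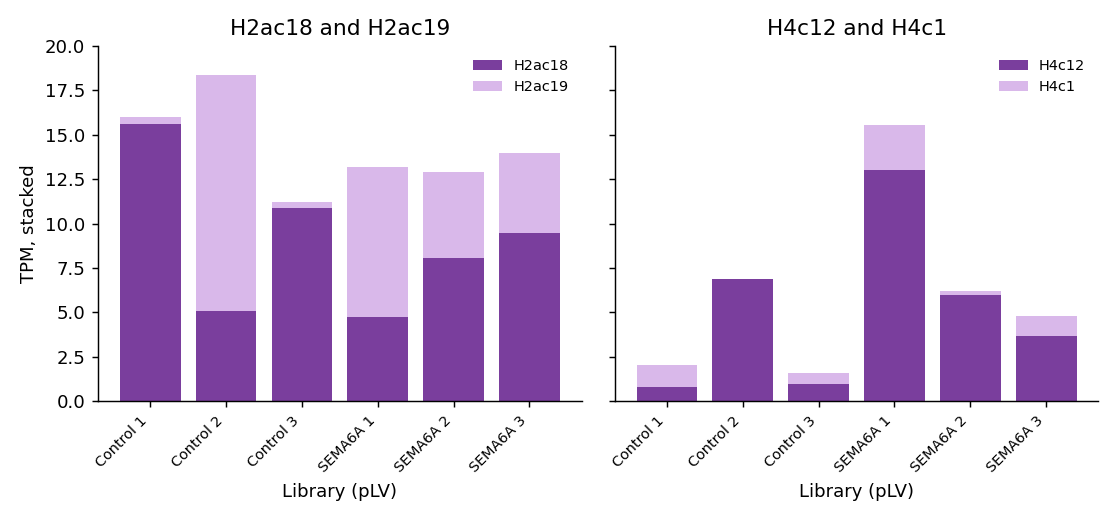
Stacked TPM per library of H2ac18 with H2ac19 and of H4c12 with H4c1. The split between H2ac18 and H2ac19 changes from library to library, with H2ac19 at 13.25 TPM in pLV-Control replicate 2 and at 0.40 and 0.32 TPM in the other pLV-Control libraries.

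H3 genes encode the replicative H3.1 and H3.2 proteins. They summed to 9.92, 9.10 and 11.36 TPM in pLV-Control and to 13.47, 21.52 and 15.86 TPM in pLV-SEMA6A, which do not overlap. Of the 4 tested 1 was an upregulated DEG, beside 5.12% of all genes tested. That gene, H3c8, was at 0.20, 0.55 and 0.44 TPM against 1.82, 4.18 and 1.83 TPM, reaching a mean of 1 TPM only in pLV-SEMA6A. Its log2FC was 1.32 (SE 0.28, limma adjusted p = 0.00928), and without pLV-SEMA6A replicate 2 its mean fell under the filter, so no value was had. H3c3, at 1.50, 1.27 and 2.70 TPM against 2.13, 5.98 and 4.58 TPM, had a log2FC of 0.85 (limma adjusted p = 0.0792) and passed only without its lowest pLV-SEMA6A library, replicate 1 (1.18, adjusted p = 0.0158). H3c15, at 2.47, 2.57 and 1.24 TPM against 2.59, 3.17 and 2.22 TPM, overlapped, with a log2FC of 0.27 (limma adjusted p = 0.351).

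H2B and H1 genes, in contrast, had sums that overlap between the groups. The H2B sum was 44.95, 36.97 and 41.15 TPM in pLV-Control libraries, with 39.16, 38.38 and 39.70 TPM in those of pLV-SEMA6A. The H1 sum was 28.96, 27.29 and 26.42 TPM against 24.89, 28.98 and 28.50 TPM. A single gene carried most of each.

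H2bc4, the clustered gene with the highest mean, measured 33.08, 29.41 and 31.74 TPM in the controls against 21.93, 22.98 and 23.61 TPM in pLV-SEMA6A. All pLV-SEMA6A libraries were below all pLV-Control libraries. Its log2FC of −0.44 (SE 0.06, limma adjusted p = 0.00111) passed the p threshold and not the minimum of 0.5. H2bc4 spans 23684199 to 23692908 on chromosome 13, and its annotated transcript is spliced and holds no stem-loop as searched.

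H2bc21, whose annotated transcript of 2620 bases also holds none, was at 2.83, 2.23 and 2.35 TPM against 3.46, 4.11 and 3.16 TPM. The groups do not overlap, and the log2FC of 0.40 (SE 0.13, limma adjusted p = 0.0434) lay under the minimum. H2bc8 stood at 2.25, 1.60 and 1.79 TPM without the transgene and 4.49, 4.21 and 2.0 TPM with it, where only replicate 3 reaches into the pLV-Control range. Its log2FC was 0.62 (limma adjusted p = 0.0857), and 0.90 without that library (adjusted p = 0.00697).

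H1f2, which encodes the linker histone H1.2, was at 27.75, 26.59 and 25.42 TPM in pLV-Control libraries, with 24.16, 27.49 and 26.46 TPM in those of pLV-SEMA6A. The groups overlap fully, and the log2FC was −0.03 (SE 0.06, limma adjusted p = 0.712). Its sign turned to 0.06 with libraries centred on their medians. The annotated transcript of H1f2 runs 840 bases past the stem-loop and holds AATAAA, the usual polyadenylation signal, in its last 50 bases. Among clustered genes with a stem-loop, so do H2ac8 (mean 3.595 TPM), H4c11 (1.157), H3c14 (0.985), H4c14 (0.66) and H1f6 (0). H4c9, at a mean of 14.775 TPM, holds no AATAAA past its stem-loop. The part of this signal in the levels was not tested.

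**Figure D4:**
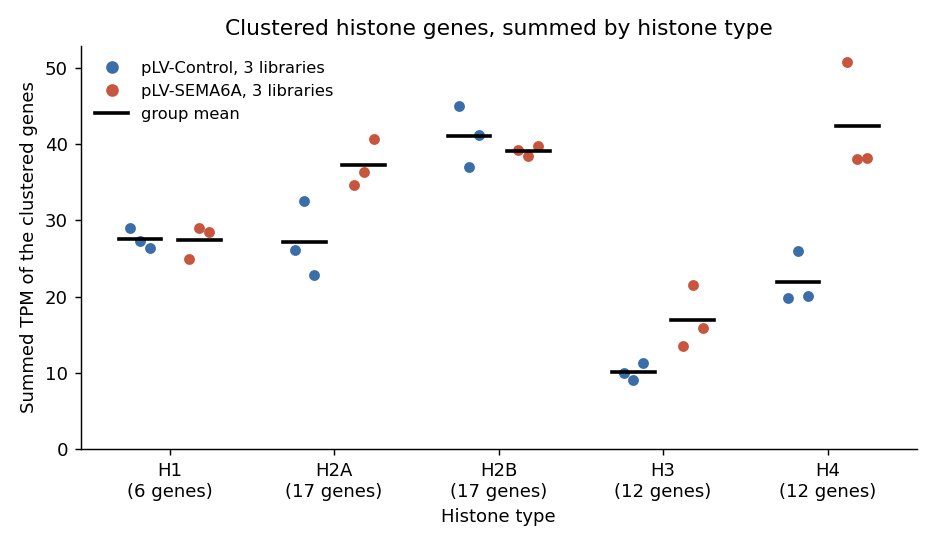
Summed TPM of the clustered genes of each histone type, each library a point and the group mean a line. The H4, H3 and H2A points of pLV-SEMA6A lie above those of pLV-Control, while the H1 and H2B points overlap. Most of the H2B sum is H2bc4, which was lower in pLV-SEMA6A.

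The 7 other clustered genes that were tested had means of 1.02 to 2.14 TPM. None passed the threshold (adjusted p from 0.163 to 0.920 by limma), with log2FCs of −0.06 to 1.01, above 0 in 6. Of the 41 genes not tested, the pLV-SEMA6A libraries lay all above in 3, all below in 1 and overlapped in 37. The last count includes the 6 genes listed at 0 in all libraries, which cannot separate. The shares among all genes not tested were not taken, so these counts are a description only.

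The length annotated past the stem-loop did not order the clustered genes by level. The 19 with at least 100 bases had a median mean of 0.71 TPM and a highest of 26.3 TPM. The 22 with less had a median of 1.00 TPM and a highest of 8.97 TPM, and the 23 without a stem-loop had a median of 0.58 TPM and a highest of 27.1 TPM. The highest member is H1f2 in the first group, H2ac18 in the second and H2bc4 in the third. Upregulated DEGs were 3 of 6 tested in the first, 1 of 11 in the second and 1 of 6 in the third, too few to compare. Over all genes tested the share was 5.12%.

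**Figure D5:**
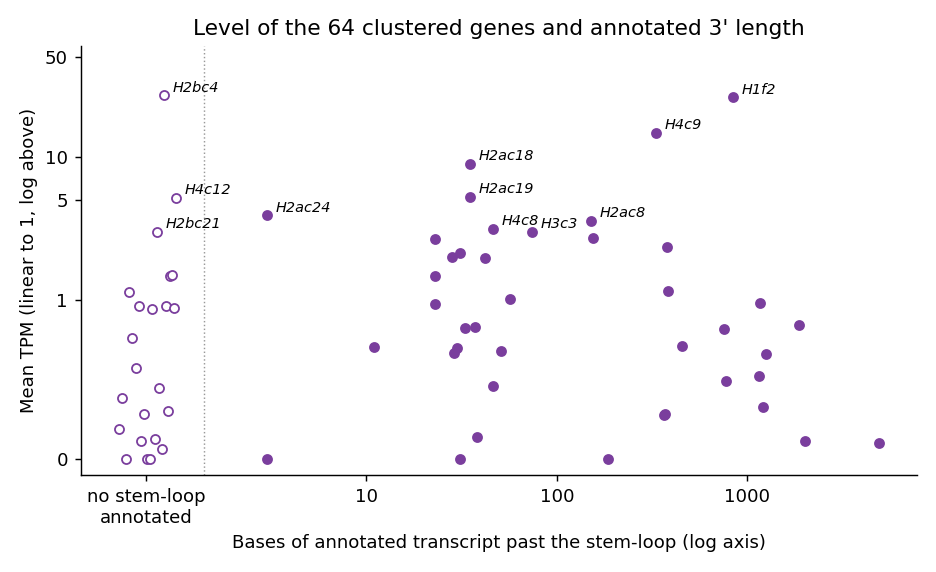
Mean TPM (linear up to 1, log above) of each clustered gene against the bases annotated past its stem-loop (log axis), with the 23 genes that lack one drawn open at the left and spread only for legibility. H1f2 and H4c9 stand above genes of like length, while the medians are 0.71 TPM with at least 100 bases past the stem-loop, 1.00 TPM with fewer and 0.58 TPM without one.

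The clustered genes lie in tight groups, 54 on chromosome 13 and 10 on chromosome 3, and 13 neighbouring pairs are transcribed away from each other. H2ac8 and H2bc8 form such a pair, as do H2ac11 and H2bc11. The H2B gene of each pair was not a DEG, but its log2FC was also above 0, at 0.62 in both H2bc8 and H2bc11. No difference between the genes of a pair was tested. H2bc11 was at 0.55, 1.19 and 0.87 TPM against 2.03, 0.63 and 3.62 TPM, and its log2FC of 0.62 (SE 0.39, limma adjusted p = 0.234) came with 1 pLV-SEMA6A library inside the pLV-Control range and the other 2 above it. The bases between the starts of each pair are given below on the plus strand (RefSeq, GRCm38.p6), with the H2A gene to the left, and capitals mark, on either strand, the CCAAT box, the TATA box as TATAAA and the octamer as ATTTGCAT.
H2ac8 and H2bc8, chr13:23571221-23571395: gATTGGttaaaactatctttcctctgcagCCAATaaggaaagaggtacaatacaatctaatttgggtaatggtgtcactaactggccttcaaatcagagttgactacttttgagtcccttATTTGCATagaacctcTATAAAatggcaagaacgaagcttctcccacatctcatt
H2ac11 and H2bc11, chr13:22042950-22043197: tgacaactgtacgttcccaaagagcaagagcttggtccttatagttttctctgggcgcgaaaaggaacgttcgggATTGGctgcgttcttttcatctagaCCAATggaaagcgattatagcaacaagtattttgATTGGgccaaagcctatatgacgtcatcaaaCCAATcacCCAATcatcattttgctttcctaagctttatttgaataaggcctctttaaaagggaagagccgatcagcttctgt
The stretch between H2ac8 and H2bc8 holds the CCAAT box in 2 places, with the TATA box and the octamer once each, and the longer stretch between H2ac11 and H2bc11 holds CCAAT in 5 places.

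RefSeq promoters, from 250 bases before to 50 after the start, matched 58 of the 64 clustered genes, with 59 windows since H2bc6 has a pair of starts. CCAAT, the letters bound by the factor NF-Y, was in every H1, H2A, H2B and H3 window and in 3 of 11 H4 windows, beside 37.4% of all 32851 promoters. It was in 7 of the 11 variant windows. ATTTGCAT, the octamer bound by OCT1, was in 7 of 15 H2B and 6 of 17 H2A windows and in 0 of the H1, H3 and H4 windows. It was in 1 of the 11 variant windows and in 1.74% of all promoters. TATAAA was in 4 of 6 H1, 11 of 17 H2A, 7 of 15 H2B, 4 of 10 H3 and 8 of 11 H4 windows, in 2 of the 11 variant windows and in 13.6% of all promoters. A match is a description of the letters and not of a bound site.

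Other histone genes, which the names do not take under their current symbols, were described beside the members. Of 9 listed, 6 were tested, 3 were upregulated DEGs and 0 were downregulated by limma (4 and 1 with an unadjusted p under 0.05), beside 5.12% and 10.8% of all genes tested. H2ax, which encodes H2A.X, the variant phosphorylated at DNA breaks, measured 52.64, 56.38 and 57.32 TPM in the controls against 100.39, 100.34 and 96.70 TPM in pLV-SEMA6A. Its log2FC was 0.83 (SE 0.04, limma adjusted p = 2.51e-05). H2aw is no replacement variant: GENCODE M21 names it Hist3h2a, it holds the stem-loop as H2ax does, and it is annotated 1643 bases past it. It shares 32.1% of its runs of 31 bases with Trim17. It rose from 9.03 ± 0.41 to 17.8 ± 0.86 TPM (SD, n = 3 each), and H2aj from 51.0 ± 1.92 to 77.4 ± 9.69 TPM. Macroh2a1 (log2FC −0.15), Macroh2a2 (−0.38) and Cenpa (0.12) were not DEGs.

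Factors that transcribe clustered histone genes or process their mRNAs were a list of 30 genes, of which 29 were tested. By limma 3 were upregulated DEGs and 2 downregulated, where 5.12% and 10.8% of all genes tested were. At an unadjusted p under 0.05, 9 were higher and 8 lower, and the median log2FC was 0.01. With libraries centred the shares of all genes were 8.01% and 7.68%. In that fit Srrt also passed as upregulated (log2FC 0.58, limma adjusted p = 0.00145), and both downregulated genes fell under the minimum. Slbp, which encodes the protein that binds the histone stem-loop, stood at 38.02, 45.22 and 45.44 TPM without the transgene and 64.79, 64.50 and 60.08 TPM with it. The groups do not overlap, and the log2FC was 0.55 (SE 0.08, limma adjusted p = 0.00149). Without pLV-Control replicate 1 it was 0.47, under the minimum (adjusted p = 0.00137). Npat, the coactivator of the histone clusters, was at 11.42, 11.57 and 12.40 TPM against 12.41, 12.73 and 10.63 TPM, with a log2FC of 0.01 (limma adjusted p = 0.920).

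Cstf2, a cleavage factor of both poly-A and histone mRNA ends, rose from 26.4 ± 1.01 to 42.0 ± 1.06 TPM, and Ncbp2, of the cap-binding complex, from 22.3 ± 2.11 to 33.7 ± 2.19 TPM (SD, n = 3 each). Fip1l1, of the polyadenylation machinery, fell from 144 ± 0.36 to 98.8 ± 2.41 TPM, and with libraries centred on their medians its log2FC of −0.54 became −0.44, under the minimum. Coil, the coilin of Cajal bodies, went from 8.95 ± 0.68 to 6.03 ± 0.51 TPM, at a log2FC of −0.50 barely past the minimum. It lost the minimum without pLV-Control replicate 1 (−0.44), pLV-SEMA6A replicate 2 (−0.48) or pLV-SEMA6A replicate 3 (−0.46), and with libraries centred (−0.41).

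Histone chaperones, which carry histones to DNA, were 29 genes, all tested, with 3 upregulated DEGs and 1 downregulated by limma, against the same 5.12% and 10.8%. The list went both ways, with 9 genes higher and 8 lower at an unadjusted p under 0.05 and a median log2FC of −0.04. Dnajc9 rose from 33.1 ± 2.26 to 58.7 ± 1.97 TPM, Mcm2, a helicase subunit that also holds H3 and H4, from 83.1 ± 3.10 to 143 ± 0.10 TPM, and Hat1, which acetylates new H4, from 64.2 ± 0.95 to 96.1 ± 4.44 TPM (SD, n = 3 each). Ubn2, of the complex that deposits H3.3, fell from 10.2 ± 0.20 to 6.70 ± 0.41 TPM. Its log2FC of −0.54 lay just under the minimum without pLV-SEMA6A replicate 1 (−0.49) and with libraries centred (−0.44).

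S phase genes, active when clustered histones are made, were 24 genes, all tested, of which 8 were upregulated DEGs and 0 downregulated by limma, beside 5.12% and 10.8% of all genes tested. Their median log2FC was 0.34. With an unadjusted p under 0.05, again without a share of all genes at that cutoff, 17 were higher and 1 lower. Ccne2, a cyclin of the G1 to S step, was at 7.88, 6.97 and 7.89 TPM in pLV-Control libraries, with 14.63, 15.15 and 14.92 TPM in those of pLV-SEMA6A (log2FC 0.89, SE 0.07, limma adjusted p = 0.000105). Tyms, which makes thymidylate, rose from 44.2 ± 2.23 to 78.4 ± 5.04 TPM, and Mcm5, of the replicative helicase, from 67.7 ± 2.66 to 113 ± 3.59 TPM (SD, n = 3 each). The 1 lower gene was Tk1, thymidine kinase, named after its values were seen, at a log2FC of −0.36. The part of S phase genes in the histone results was not tested.

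Small RNAs without a poly-A tail were taken as a measure of carry-over in these libraries. Of 21 such entries, 11 were listed at 0 and 9 were tested. The 7SL entry Rn7s2 was left out of these, since its values equal those of Rn7s1 in every library. If reads were divided evenly between Rn7s1 and Rn7s2, the sum understates 7SL RNA. The sum of the 21 entries was 359.75, 170.26 and 129.83 TPM in the controls against 263.03, 145.78 and 176.56 TPM in pLV-SEMA6A. The groups overlap, and the range within pLV-Control is wider than the difference between the groups. With Malat1, Neat1 and Rn7s2 the list has 24, of which 12 were tested, Rn7s1 and Rn7s2 counted separately. Limma gave 0 upregulated DEGs and 1 downregulated (1 and 2 with an unadjusted p under 0.05), beside 5.12% and 10.8% of all genes tested. That DEG was Malat1, a long nuclear RNA and not one of the 21 small RNA entries. It fell from 387 ± 53.6 to 229 ± 23.6 TPM (SD, n = 3 each). The part of carry-over in the clustered values was not tested.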

How the data were processed

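SL4 cells were sequenced as 3 pLV-Control and 3 pLV-SEMA6A libraries after oligo(dT) selection. The authors deposited gene-level TPM. The submitters' notes name HISAT, Bowtie2, RSEM and mm39, with no role or version, and the annotation is not given in the sources used here. RSEM divides reads shared between near-identical genes by estimate, so single clustered values carry that uncertainty. The files give no counts, so precision is that of the 3 libraries.

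A mean of 1 TPM or more over 6 libraries was required of a gene, and values were fitted as log2(TPM + 1) with limma 3.58.1 (R 4.3.3, trend option, Benjamini-Hochberg adjustment over 12510 genes), a scale that understates the fold change of low genes. The script was tested on simulated data. The DEG criterion was an adjusted p under 0.05 with a log2 fold change beyond 0.5 in size. Alternatives were a pseudocount of 0.1, no filter, centred libraries, the replicate block, other fold minimums and each library left out. Libraries of the same number did not deviate together (correlations from −0.08 to −0.02), so the numbers were not taken as pairs.

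Annotation was GENCODE M21 and RefSeq on GRCm38, matched by Ensembl ID or symbol, so coordinates are on GRCm38 while the submitters name mm39. Shared stretches are runs of 31 bases found in transcripts of another gene. Python 3.11.15 was used.

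Values are given in full for variants above 0, for the 3 highest tested clustered genes of each type and for clustered DEGs, and for the DEGs of each list with the largest change. H2bc11, H4c1 and Tk1 were added after their values were seen. The members and lists were chosen with earlier results of these data known.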

Additional observations from a re-analysis of the deposited data

How the results depend on the processing

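Across 41 named genes, 25 were DEGs and 20 of these stayed so in every fit that left out a library and could be made; H4c11, H1f10, Coil, Slbp and Ubn2 did not, as given above. Upregulated DEGs numbered 640 over all genes and 1002 with centred libraries. Without a minimum fold change, 2436 genes were higher and 3523 lower; with a minimum of 1, 81 and 304. Leaving out a library gave 616 to 631 higher and 1280 to 1346 lower.

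Upregulated clustered genes numbered 5, and 4 to 7 with a library left out. Downregulated ones numbered 0, with 1 (H4c8) without pLV-SEMA6A replicate 3 and 1 (H2bc4) without a minimum. Upregulated variants numbered 2, and 1 to 2 with a library left out, 1 without the filter, 4 without a minimum fold change and 0 with a minimum of 1. The median log2 fold change of clustered genes was 0.62, and 0.25 without the filter, which adds 35 genes near 0, 0.86 with a pseudocount of 0.1, and 0.45 to 0.72 with a library left out. Without the highest gene of each histone type the ratio of clustered sums was 1.70 in place of 1.28 and that of variant sums 1.04 in place of 1.47. With a library left out these ratios were 1.25 to 1.30 and 1.46 to 1.48.

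The replicate block gave 1 upregulated variant in place of 2, since H1f10 was lost, and 5 upregulated clustered genes, with H4c11 lost (adjusted p = 0.0808 from limma) and H4c2 gained. Over all genes the block gave 623 higher and 1301 lower.

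Genes near 0 changed sign. H1f2 had a log2 fold change of 0.063 with centred libraries, and of −0.069 to 0.021 with a library left out. For Npat, leaving out a library gave −0.034 to 0.085. Depth is unknown from TPM, so the counting error of clustered genes near 1 TPM could not be given.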
